A study of Mus musculus with 6 samples.

Results

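The genes described here encode integrins, laminins, type IV collagens, nidogens and 3 further proteins of the basement membrane or its attachment, perlecan (Hspg2), agrin (Agrn) and dystroglycan (Dag1). They were chosen by gene symbol from the deposited count table, and 48 of its 23478 genes belong to them. Tracheas of mouse embryos of day 13.5 were sorted into muscle and epithelial cells, and RNA was counted in 3 libraries of each. All 6 libraries are labelled as controls and share one genotype, Bmp4 f/f with a gamma SMA eGFP reporter, and the labels name no Cre. Muscle was collected by GFP and epithelium by an APC-labelled antibody to Epcam, so a cell's place in a population rests on reporter or surface protein, and how many animals went into a library is not given in the labels. The series is about Wnt signalling, ion channels and how tracheal muscle and cartilage form. The comparison below asks which matrix and adhesion genes differ between the sorted populations.

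A basement membrane is a thin sheet of matrix under epithelia and around muscle cells. Laminins, each built of an alpha, a beta and a gamma chain, form one network in it and type IV collagens, built of 3 alpha chains, form another. Nidogens and perlecan link the networks. Cells hold on to the sheet through integrins, which pair an alpha with a beta chain and connect to actin filaments or, in hemidesmosomes, to keratin filaments, and through dystroglycan. In the trachea the sheet lies between the epithelium and the mesenchyme from which smooth muscle and cartilage form.

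Genes of type IV collagen lie head to head in the mouse genome, and the stretches between or before their starts are shown because neighbours were called alike in one pair and differently in another: Col4a1 and Col4a2 were both higher in muscle, while Col4a6 was higher in epithelium and Col4a5 did not pass the threshold. In the GENCODE M21 annotation (GRCm38), Col4a1 and Col4a2 overlap by 22 bases at their starts on chromosome 8, Col4a3 and Col4a4 start 71 bases apart on chromosome 1, and Col4a5 and Col4a6 start 1308 bases apart on the X chromosome. The sequences are RefSeq's (GRCm38.p6), written 5′ to 3′ on the strand named, and capitals mark GGGCGG or CCAAT on either strand. The stretch of Col4a1 and Col4a2 is where their exons overlap (chr8:11312805-11312826, plus strand), that of Col4a3 and Col4a4 lies between the genes (chr1:82586850-82586920, minus strand), and those of Col4a6 (chrX:141474077-141474326, minus strand) and Col4a5 (chrX:141475169-141475384, plus strand) lie before the starts, outside annotated exons.
Col4a1 and Col4a2: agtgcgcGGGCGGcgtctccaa
Col4a3 and Col4a4: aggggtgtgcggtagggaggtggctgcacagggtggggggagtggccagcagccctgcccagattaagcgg
Col4a6: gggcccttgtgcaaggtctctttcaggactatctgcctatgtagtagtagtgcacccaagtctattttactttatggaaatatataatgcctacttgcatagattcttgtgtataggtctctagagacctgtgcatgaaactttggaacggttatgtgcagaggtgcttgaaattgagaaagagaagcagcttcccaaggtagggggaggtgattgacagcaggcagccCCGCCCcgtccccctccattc
Col4a5: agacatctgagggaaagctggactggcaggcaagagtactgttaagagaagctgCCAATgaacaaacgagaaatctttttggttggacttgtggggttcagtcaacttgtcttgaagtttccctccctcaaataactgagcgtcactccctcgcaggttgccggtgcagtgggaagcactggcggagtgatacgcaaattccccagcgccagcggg
The short stretches of the first 2 pairs hold 72.7% and 69.0% G or C, against 47.6% before Col4a6 and 52.3% before Col4a5.

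Total counts ran from 11847432 in epithelium replicate 2 to 54848820 in epithelium replicate 1. The sorting genes separated the populations: Epcam stood between 0.65 and 2.20 CPM (counts scaled to a common library total) in muscle and between 541 and 710 in epithelium, and Actg2 between 403 and 2786 in muscle and between 1.60 and 2.47 in epithelium. The lowest Actg2 level in muscle was that of replicate 2. In muscle replicates 1 to 3 the 12 smooth muscle markers summed to 19661, 4860 and 21093 CPM. The fibroblast markers described next summed to 8094, 9894 and 10873 CPM there, and the cartilage markers to 1111, 1814 and 1707 CPM. What the low smooth muscle sum of muscle replicate 2 adds to its values below was not tested. Summed over 12 smooth muscle markers, epithelial libraries held 1.15% to 1.40% of the muscle mean, and over 15 epithelial markers muscle libraries held 0.65% to 0.97% of the epithelial mean. Summed over 12 fibroblast markers, epithelium replicates 1 and 3 held 3.91% and 2.93% of the muscle mean, while epithelium replicate 2 held 23.1%. All 12 fibroblast markers had higher means in muscle, with a sum of 9620 ± 1410 CPM (SD, n = 3) against 960 ± 1094 in epithelium, as did 11 of 14 cartilage markers, with a sum of 1544 ± 379 against 579 ± 182. These move with the genes higher in muscle described below, and their part in those results was not tested. Of 1449 olfactory and vomeronasal receptor genes, known from sensory neurons, 73.4% to 78.8% had counts in muscle replicate 2 and epithelium replicates 2 and 3 and 2.90% to 17.4% had counts in the other 3 libraries. Such counts are named background counts below. The labels do not say whether libraries came from separate embryos, so p-values measure the spread between libraries, which may be technical. In bulk samples fewer cells of a type and less RNA per cell cannot be told apart.

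Muscle carried more RNA for the nidogens, perlecan, Col4a1, Col4a2, the laminin chains Lama4, Lamb1 and Lamc1 and the integrin chains Itga1, Itga4, Itga5, Itga8, Itga9, Itgb1 and Itgb3. Epithelium carried more for Itga3, Itga6, Lamb3 and Col4a6. Of the 48 genes, all of which were tested, 15 passed the threshold (an edgeR adjusted p under 0.05) with muscle higher and 5 with epithelium higher. Among all 19375 tested genes the shares were 6.58% and 4.11% (10.7% in both directions). The log2 ratio of muscle over epithelium, as fitted by edgeR and given with its SE below, had a median of 0.42 over the 48 genes and -0.10 over all tested genes. The populations were separate, with no overlap between libraries, in 27 of the 48 genes, 19 with muscle higher and 8 with epithelium higher. This was so for 26.9% of all tested genes (16.4% with muscle higher and 10.5% with epithelium higher). Calls toward muscle made up 61.5% of all calls over all genes, and 42.0% when libraries were scaled by their totals only. None of the 20 called genes changed direction under that scaling or in any other alternative fit. Without epithelium replicate 3 the genes called higher in muscle fell to 7, while 5 were still higher in epithelium.

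**Figure D1:**
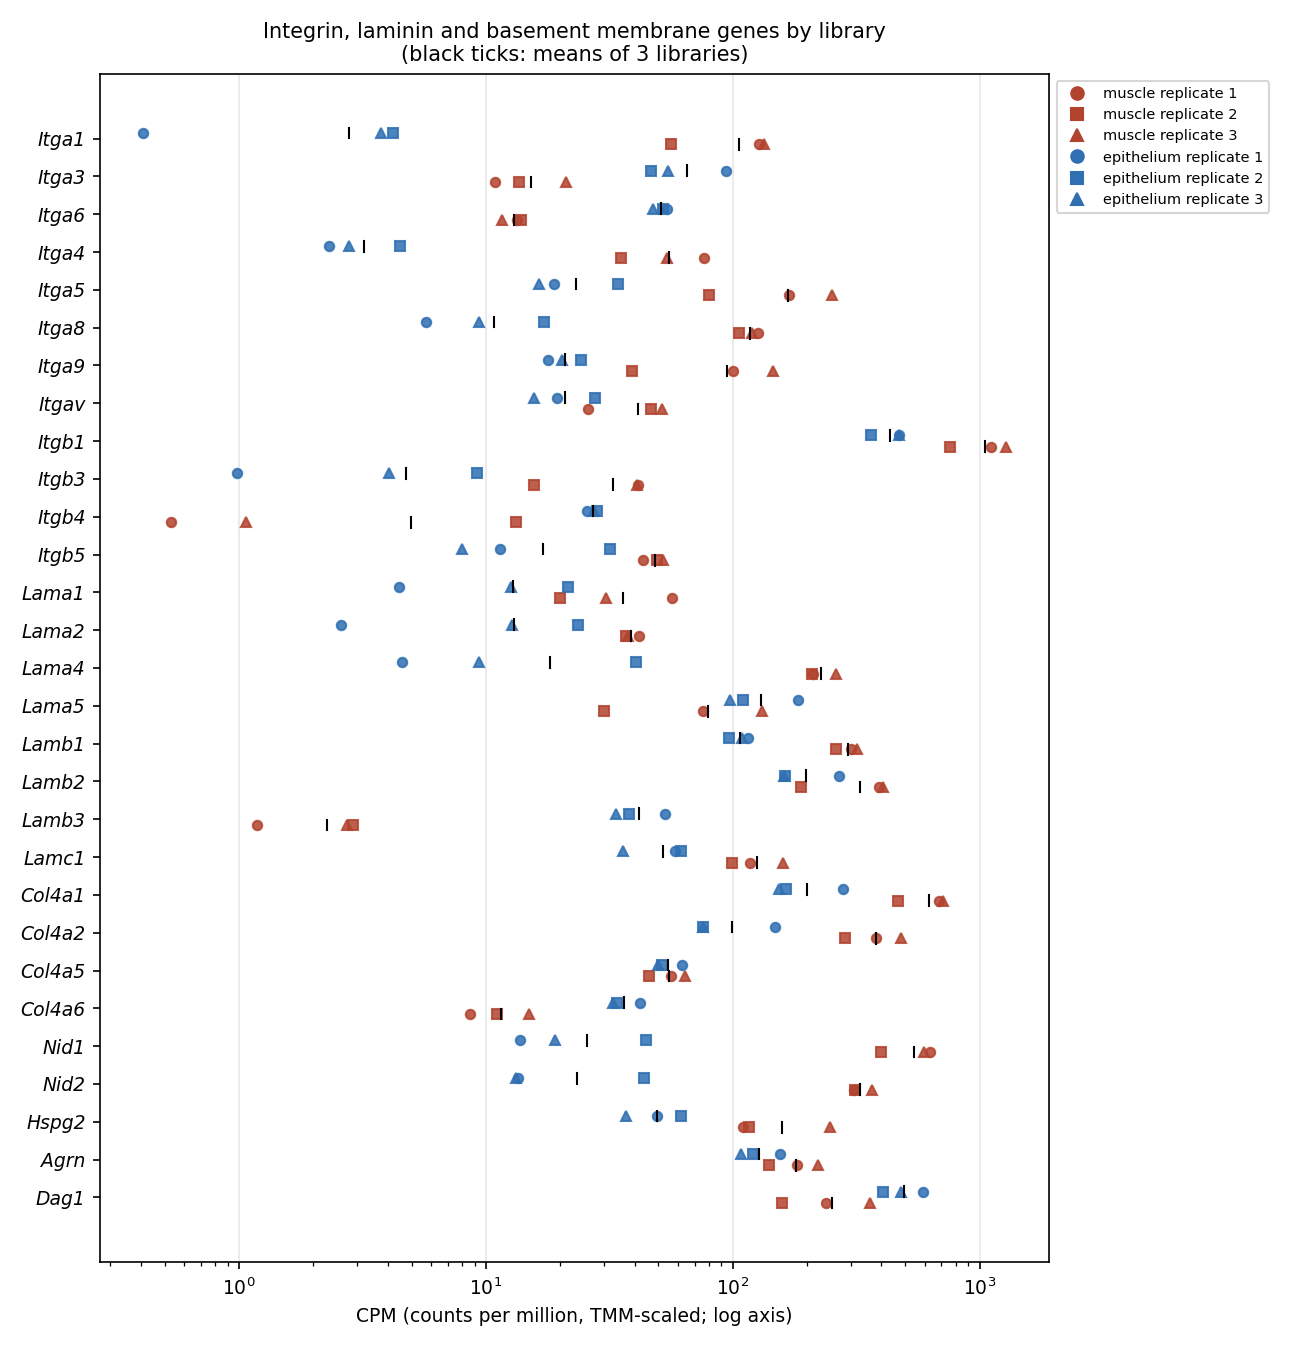
CPM on a log axis in each of the 6 libraries for 29 genes that passed the threshold or reached a mean of 20 CPM in a population, with muscle in red, epithelium in blue, marker shapes for replicates and black ticks for means of 3 libraries. Nid1, Nid2, Itga1, Itga4 and Itga8 stand far apart with muscle higher, Lamb3 with epithelium higher, and Col4a5 overlaps.

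Among integrin alpha chains that bind laminin or collagen, Itga1 was higher in muscle and Itga3 and Itga6 were higher in epithelium. Itga1, a collagen receptor chain known from smooth muscle, had 128, 56.4 and 133 CPM in muscle replicates 1 to 3 and 0.41, 4.21 and 3.76 CPM in epithelium replicates 1 to 3. Every muscle library was above every epithelial library, and the log2 ratio was 5.30 ± 0.80 (SE, edgeR adjusted p = 0.0037), or 39.5-fold. Its neighbour on chromosome 13, Itga2, lies on the same strand 20995 bases away, encodes another collagen receptor chain and had at most 8.22 CPM in any library, with overlapping groups.

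Itga3 and Itga6 encode laminin receptor chains of epithelia. Itga6 had 13.4, 13.8 and 11.7 CPM in muscle and 54.3, 51.9 and 47.7 CPM in epithelium, and the 3 libraries of each population were close together. Its log2 ratio was -1.98 ± 0.22 (edgeR adjusted p = 0.00096). Itga3 had 10.9, 13.6 and 21.2 CPM in muscle and 94.3, 46.9 and 54.4 CPM in epithelium, with the highest value in epithelium replicate 1, and its log2 ratio was -2.10 ± 0.36 (edgeR adjusted p = 0.0066). Itga1, Itga3 and Itga6 passed the threshold in all 17 alternative fits. Itga7, a laminin receptor chain of muscle, had 5.40, 19.2 and 13.2 CPM in muscle and 0.04, 5.01 and 2.10 CPM in epithelium. Its groups did not overlap by a narrow margin, and it did not pass the threshold (edgeR adjusted p = 0.31). Itga10 and Itga11, collagen receptor chains, stood between 2.51 and 19.9 CPM with overlapping groups.

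Of 5 alpha chains that bind fibronectin, tenascin or other ligands outside the laminin network, 4 were higher in muscle. Itga8, a receptor chain for nephronectin and other ligands with an RGD motif, had 126, 106 and 120 CPM in muscle and 5.71, 17.2 and 9.39 CPM in epithelium. The muscle libraries were close together, and the log2 ratio was 3.46 ± 0.40 (edgeR adjusted p = 0.0011), or 11.02-fold. Itga4, a receptor chain for fibronectin and Vcam1, had 76.2, 35.4 and 54.4 CPM in muscle and 2.32, 4.48 and 2.78 CPM in epithelium. Its log2 ratio was 4.14 ± 0.40 (edgeR adjusted p = 0.00050), the second highest among the integrin genes named here after Itga1. Some exons overlap other annotated genes, and reads there cannot be told apart without strand. The largest share, that of Itgam, is given below. The next were 34.5% of the exon bases of Itga10 (Gm42957), 19.7% of Itgad (4 genes), 11.5% of Itga4 (Cerkl), 8.78% of Nid2 (Rtraf) and 8.41% of Itgb4 (B230344G16Rik). Then came 6.58% of Col4a3 (C430014B12Rik), 6.41% of Lamc3 (Gm13441), 6.38% of Itga8 (E030013I19Rik) and 6.25% of Itga1 (Gm49395). Lower shares were those of Nid1 (2.35%), Lama3 (1.83%), Lama2 (1.57%), Col4a2 (1.01%), Col4a1 (0.33%) and Itga7 (0.21%).

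Itga5, the classical fibronectin receptor chain, had 170, 80.0 and 253 CPM in muscle and 18.8, 34.2 and 16.4 CPM in epithelium. There was no overlap, although muscle replicate 2 was well below the other muscle libraries, and the log2 ratio was 2.86 ± 0.46 (edgeR adjusted p = 0.0049). Itga9, a receptor chain for tenascin-C, had 100.3, 39.0 and 145 CPM in muscle and 17.8, 24.3 and 20.3 CPM in epithelium, with the lowest muscle value again in replicate 2. Its log2 ratio of 2.19 ± 0.44 (edgeR adjusted p = 0.013) was at an adjusted p of 0.055 without epithelium replicate 3. Itgav, which pairs with several beta chains, had 25.9, 46.6 and 51.8 CPM in muscle and 19.4, 27.7 and 15.7 CPM in epithelium, and the groups overlapped. It did not pass the threshold (0.99 ± 0.33, edgeR adjusted p = 0.11). Of 17 alternative fits it passed in 1, at 0.048 when muscle replicate 1 was left out. Without epithelium replicate 3 its adjusted p was 0.46.

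Itgb1, the common partner of most alpha chains, had the highest CPM among the integrin genes in every library. It had 1109, 755 and 1281 CPM in muscle and 472, 362 and 472 CPM in epithelium. Every muscle library was above every epithelial one, and the log2 ratio was 1.27 ± 0.28 (edgeR adjusted p = 0.020). The call was lost without muscle replicate 1, muscle replicate 3 or epithelium replicate 3 (adjusted p of 0.076, 0.089 and 0.087). Per kilobase of coding sequence, Itgb1 made up 91.1% ± 1.60 (SD, n = 3) of the summed level of the 8 beta chains in muscle and 88.0% ± 6.76 in epithelium, and these shares overlapped.

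Itgb3 and Itgb5, which pair with the Itgav chain, both had muscle above epithelium without overlap, and only Itgb3 passed the threshold. A difference between these genes was not tested. Itgb3 had 41.3, 15.7 and 41.0 CPM in muscle and 0.98, 9.22 and 4.06 CPM in epithelium, so that replicate 2 was the lowest muscle and the highest epithelial library. Its log2 ratio of 2.81 ± 0.73 (edgeR adjusted p = 0.041) passed in 8 of 17 alternative fits, and without muscle replicate 1, muscle replicate 3 or epithelium replicate 3 its adjusted p was 0.12, 0.12 and 0.18. Without epithelium replicate 2 its log2 ratio was 3.70. Itgb5 had 43.1, 49.4 and 52.2 CPM in muscle and 11.4, 31.7 and 7.96 CPM in epithelium without overlap. It did not pass the threshold (1.51 ± 0.47, edgeR adjusted p = 0.079), and it passed at 0.0026 with a log2 ratio of 2.25 without epithelium replicate 2, the library with the most fibroblast marker counts among the epithelial ones. The part of those cells in its level was not tested. Itgb5 passed in 5 of 17 alternative fits.

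Itgb4 is the partner of the Itga6 chain in hemidesmosomes. It had 0.53, 13.3 and 1.06 CPM in muscle and 25.8, 28.1 and 27.5 CPM in epithelium. Epithelial libraries lay within 3 CPM of each other, and muscle replicate 2 stood apart from the other muscle libraries, which were near 1 CPM. The log2 ratio of -2.47 ± 1.00 did not pass the threshold (edgeR adjusted p = 0.19). Without muscle replicate 2 it was -5.05 at an adjusted p of 0.00014. Itgb4 passed in 5 of 17 alternative fits, and with other libraries left out its adjusted p was up to 0.50. Muscle replicate 2 also held the most background counts among muscle libraries, with a mean of 0.53 CPM per receptor gene against 0.030 and 0.020 in replicates 1 and 3, and the part of these counts in Itgb4 was not tested. The summed epithelial markers of muscle replicate 2 stood at 0.97% of the epithelial mean, against 0.65% and 0.94% in replicates 1 and 3. The part of epithelial cells in its Itgb4 level was not tested either.

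Itgb6, an epithelial partner of Itgav, had 2.43, 7.49 and 0.20 CPM in muscle and 10.5, 20.2 and 13.6 CPM in epithelium without overlap, at an adjusted p of 0.25 (edgeR). Itgb8, also a partner of Itgav, had 11.4, 9.29 and 10.8 CPM in muscle and 2.10, 5.55 and 1.76 CPM in epithelium without overlap, at an adjusted p of 0.12 (edgeR). Neither passed the threshold. Without muscle replicate 2 the adjusted p of Itgb6 was 0.043, and without epithelium replicate 2 that of Itgb8 was 0.031. Of 17 alternative fits Itgb6 passed in 2 and Itgb8 in 3. With other libraries left out their adjusted p was up to 0.58 and 0.44.

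**Figure D2:**
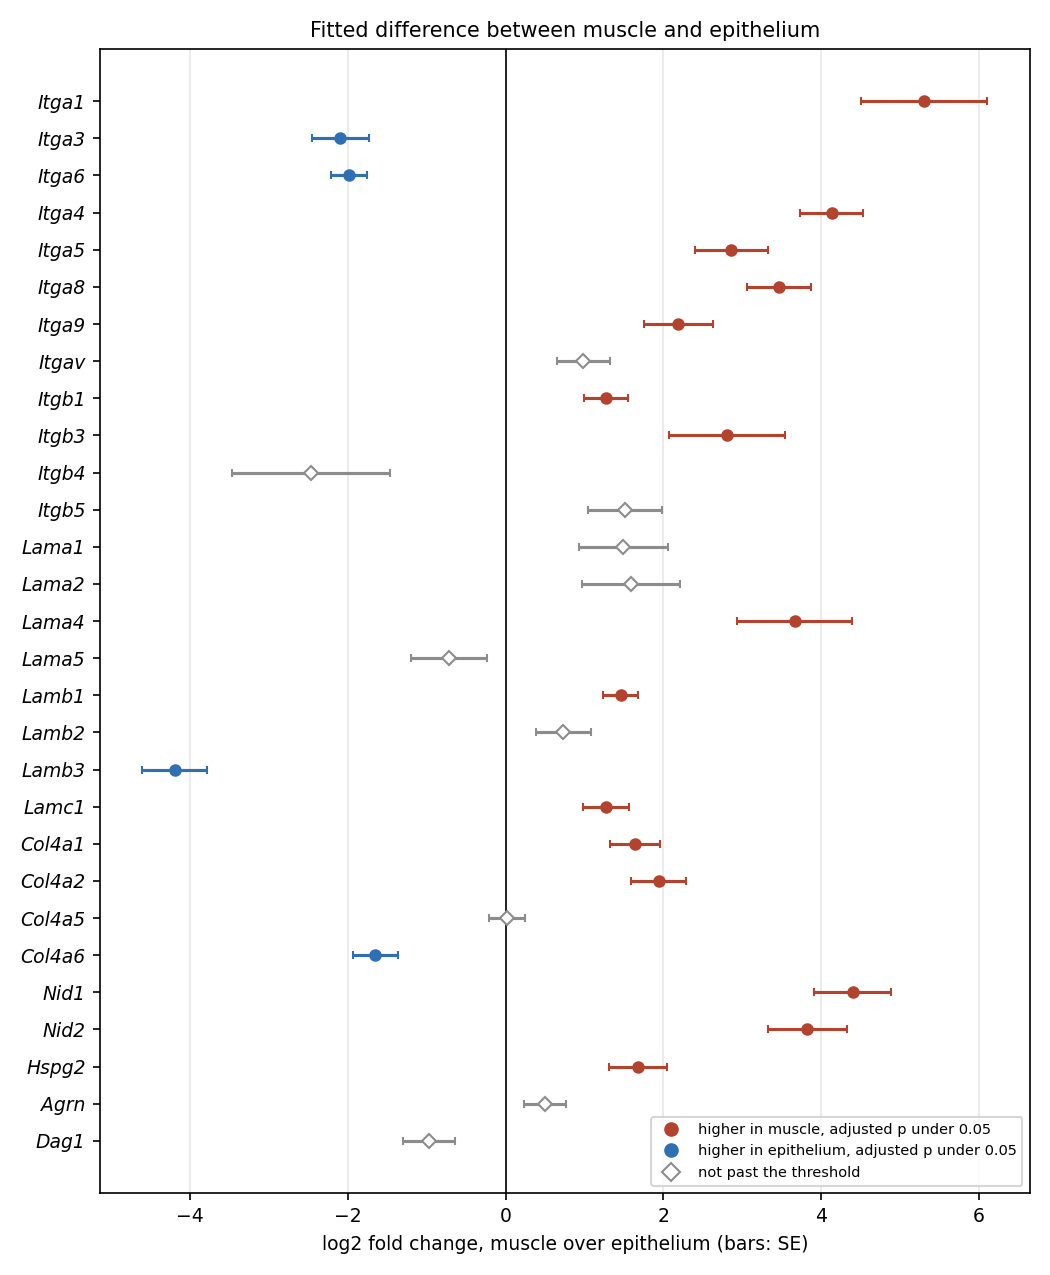
Log2 ratio of muscle over epithelium with SE bars for the same 29 genes, filled red or blue where the adjusted p is under 0.05 in edgeR and open grey where it is not. Calls toward muscle reach from 1.27 (Itgb1 and Lamc1) to 5.30 (Itga1) and calls toward epithelium from -1.65 (Col4a6) to -4.19 (Lamb3).

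The laminin alpha chain with the highest level per length was Lama4 in muscle and Lama5 in epithelium. Lama4, the short alpha chain of mesenchymal and vascular basement membranes, had 212, 209 and 261 CPM in muscle and 4.55, 40.6 and 9.39 CPM in epithelium. There was no overlap, epithelium replicate 2 was the highest of the epithelial libraries, and the log2 ratio was 3.66 ± 0.73 (edgeR adjusted p = 0.013). Leaving out muscle replicate 1, muscle replicate 3 or epithelium replicate 3 gave adjusted p-values of 0.053, 0.054 and 0.071, and without epithelium replicate 2 the log2 ratio was 5.02. Endothelial cells also make Lama4: summed over 12 endothelial markers the libraries held 84.6 to 122.6 CPM in muscle and 15.8 to 86.7 CPM in epithelium. 1 of these 12 markers, Esam, was called higher in muscle. The part of endothelial cells or fibroblasts in the level of Lama4 was not tested.

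Lama5, the main alpha chain of epithelial basement membranes in many organs, had 75.9, 30.2 and 131 CPM in muscle and 184, 110 and 97.0 CPM in epithelium. The groups overlapped, since muscle replicate 3 was above epithelium replicates 2 and 3, and the gene did not pass the threshold (-0.72 ± 0.48, edgeR adjusted p = 0.52). In share it differed more, but shares within a class depend on each other, so a higher Lama4 level by itself lowers the Lama5 share. Per kilobase of coding sequence, Lama4 made up 68.6%, 79.5% and 71.1% of the summed alpha chain level in muscle and 4.497%, 31.8% and 12.3% in epithelium. Lama5 made up 12.004%, 5.60% and 17.4% in muscle and 88.5%, 41.9% and 62.1% in epithelium. These shares did not overlap between the populations for either chain. The high Lama4 share among epithelial libraries was that of replicate 2.

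Lama1 and Lama2, alpha chains of embryonic and muscle basement membranes, had higher means in muscle but did not pass the threshold. Lama1 had 56.9, 19.9 and 30.8 CPM in muscle and 4.42, 21.5 and 12.6 CPM in epithelium, with overlap (1.49 ± 0.57, edgeR adjusted p = 0.15). Lama2 had 41.7, 37.1 and 37.6 CPM in muscle and 2.58, 23.7 and 12.7 CPM in epithelium, without overlap (1.59 ± 0.62, edgeR adjusted p = 0.16). Without epithelium replicate 2, which was the highest epithelial library for both, the log2 ratios were 2.06 and 2.37 at adjusted p of 0.044 and 0.030. Each passed in 3 of 17 alternative fits. With other libraries left out the adjusted p was up to 0.48 for Lama1 and 0.45 for Lama2. Lama3, the alpha chain that joins Lamb3 in the laminin of hemidesmosomes, had 3.61 to 10.7 CPM in muscle and 5.41 to 13.2 CPM in epithelium, with overlap.

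Lamb1 and Lamc1 were higher in muscle, and Lamb3 was higher in epithelium. Lamb1, a widespread beta chain, had 302, 262 and 319 CPM in muscle and 116, 96.7 and 109 CPM in epithelium. The populations stood far apart for their spread, at a log2 ratio of 1.46 ± 0.23 (edgeR adjusted p = 0.0039). Lamb3 had 1.18, 2.90 and 2.73 CPM in muscle and 53.0, 37.9 and 33.7 CPM in epithelium, at a log2 ratio of -4.19 ± 0.41 (edgeR adjusted p = 0.00053), or 18.3-fold lower in muscle. Lamb1 and Lamb3 passed in all 17 alternative fits. Lamb2, a beta chain of muscle and kidney basement membranes, had 391, 189 and 406 CPM in muscle and 269, 163 and 161 CPM in epithelium, with overlap. It did not pass the threshold (0.73 ± 0.35, edgeR adjusted p = 0.28). Of 17 alternative fits it passed in 1, at 0.049 when muscle replicate 2 was left out. Without epithelium replicate 3 its adjusted p was 0.83.

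Lamc1, the gamma chain of most laminins, had 118, 99.2 and 159 CPM in muscle and 58.6, 61.4 and 35.9 CPM in epithelium. Every muscle library was above every epithelial one, at a log2 ratio of 1.27 ± 0.30 (edgeR adjusted p = 0.025). Its adjusted p was 0.059, 0.095 and 0.13 without muscle replicate 1, muscle replicate 3 and epithelium replicate 3. Lamc3, another gamma chain, had at most 7.08 CPM in any library. Within the 4 libraries that share a date-like identifier in the file headers (replicates 1 and 3), all called genes named here kept their call. The other such batch, the replicates numbered 2, has 1 library per population and allows no test.

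**Figure D3:**
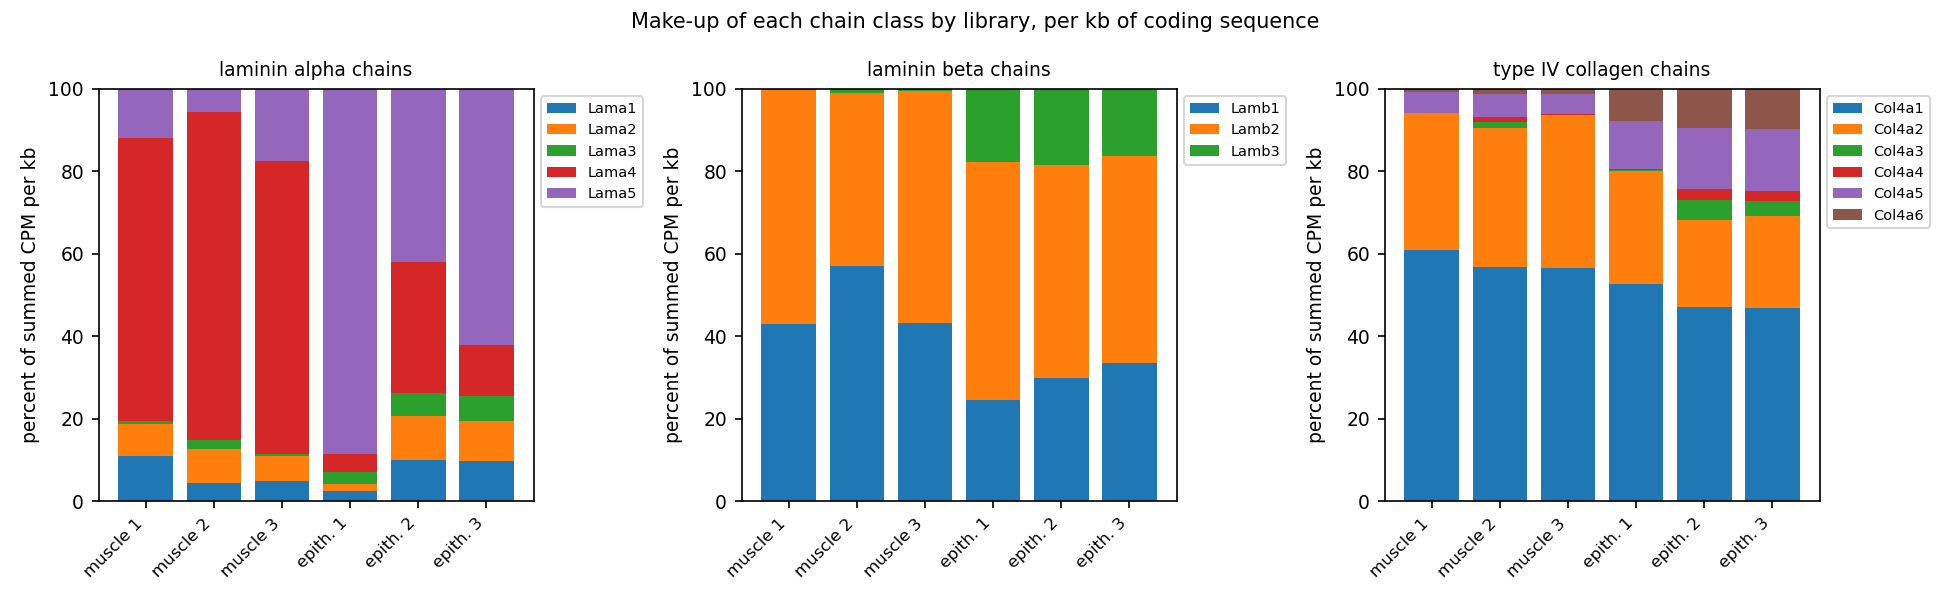
Percent of the summed CPM per kilobase of longest coding sequence that each chain took within its class, as stacked bars for the 6 libraries, in panels for laminin alpha chains, laminin beta chains and type IV collagen chains. Lama4 fills most of the alpha panel in muscle and Lama5 the largest part in epithelium, Lamb3 takes 16.2% to 18.4% of the beta panel in epithelium and under 1% in muscle, and Col4a6 takes 7.86% to 9.82% of the collagen panel in epithelium.

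In shares per length, Lamb3 took 0.26%, 0.99% and 0.58% of the beta chain level in muscle and 17.6%, 18.4% and 16.2% in epithelium. In epithelium Lamb2 was the leading beta chain with 53.3% ± 4.06 (SD, n = 3), and in muscle Lamb2 (51.6% ± 8.33) and Lamb1 (47.8% ± 8.002) did not differ beyond their spread. Long cDNAs can be covered unevenly, so shares per length are approximate.

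Col4a1 and Col4a2 were the leading type IV collagen genes in both populations, and both were higher in muscle. Per length they made up 58.0% ± 2.46 and 34.7% ± 2.16 (SD, n = 3) of the summed type IV collagen level in muscle and 48.9% ± 3.30 and 23.6% ± 3.28 in epithelium. Col4a1 had 684, 468 and 711 CPM in muscle and 278, 165 and 154 CPM in epithelium (1.64 ± 0.32, edgeR adjusted p = 0.011). Col4a2 had 382, 285 and 479 CPM in muscle and 148, 75.5 and 75.6 CPM in epithelium (1.94 ± 0.35, edgeR adjusted p = 0.0078). For both genes every muscle library was above every epithelial one, and epithelium replicate 1 was the highest epithelial library. Without epithelium replicate 3 their adjusted p was 0.071 and 0.0504. These are the chains that assemble into the common collagen network, and their starts overlap in the sequence shown above. The ratio of Col4a2 to Col4a1 counts was 0.56, 0.61 and 0.67 in muscle and 0.53, 0.46 and 0.49 in epithelium, higher in every muscle library. Such a ratio within a library cannot be moved by scaling between libraries (exact permutation test on log2 ratios, two-sided, p = 0.10, the smallest that 3 against 3 allows, and 0.20 adjusted over the 4 ratios computed).

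Col4a5 and Col4a6 encode chains of a second network and face each other on the X chromosome. Col4a5 had 56.4, 45.9 and 63.8 CPM in muscle and 62.2, 51.7 and 49.8 CPM in epithelium, fully overlapping. Its log2 ratio was 0.02 ± 0.23 (edgeR adjusted p = 0.98) with a 95% interval from -0.50 to 0.54, and its sign changed with the scaling. Col4a6 had 8.63, 11.1 and 14.9 CPM in muscle and 42.1, 33.9 and 32.8 CPM in epithelium, with no overlap and a log2 ratio of -1.65 ± 0.28 (edgeR adjusted p = 0.0062). It passed in all 17 alternative fits. Within libraries the ratio of Col4a6 to Col4a5 counts was 0.15, 0.24 and 0.23 in muscle and 0.68, 0.66 and 0.66 in epithelium. The 3 epithelial ratios were nearly equal and all were above the muscle ratios (exact permutation p = 0.10, 0.20 adjusted over 4 ratios). As a share of type IV collagen per length, Col4a6 made up 1.08% ± 0.29 (SD, n = 3) in muscle against 9.08% ± 1.07 in epithelium. Col4a5 made up 5.15% ± 0.30 in muscle against 13.7% ± 1.83 in epithelium. Its own CPM overlapped, and higher Col4a1 and Col4a2 levels by themselves lower its share in muscle.

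Col4a3 and Col4a4, chains of the kidney and lung network, were low. Col4a3 had 1.75, 11.98 and 1.01 CPM in muscle and 1.15, 16.4 and 11.9 CPM in epithelium. Col4a4 had 0.87, 10.1 and 0.66 CPM in muscle and 1.26, 9.96 and 7.81 CPM in epithelium. Both were high in the 3 libraries with background counts and low in the other 3, whichever the population.

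Both nidogens were higher in muscle by more than 14-fold. Nid1 had 631, 397 and 594 CPM in muscle and 13.7, 44.4 and 19.1 CPM in epithelium. Its log2 ratio was 4.40 ± 0.49 (edgeR adjusted p = 0.00091), or 21.1-fold. Nid2 had 309, 311 and 366 CPM in muscle and 13.5, 43.5 and 13.2 CPM in epithelium, a log2 ratio of 3.82 ± 0.50 (edgeR adjusted p = 0.0017), or 14.1-fold. Both passed in all 17 alternative fits. The highest epithelial value of both was in replicate 2, the epithelial library with 23.1% of the muscle mean of fibroblast markers, and without it the log2 ratios of Nid1 and Nid2 were 4.9997 and 4.57. The part of those cells was not tested. The ratio of Nid2 to Nid1 counts overlapped between populations (0.63 ± 0.15 and 0.89 ± 0.17, SD, n = 3, exact permutation p = 0.20).

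Perlecan, agrin and dystroglycan did not move together. Hspg2, the gene of perlecan, had 109.9, 116 and 247 CPM in muscle and 49.3, 61.5 and 36.8 CPM in epithelium without overlap (1.68 ± 0.37, edgeR adjusted p = 0.020), and at 0.0997 without epithelium replicate 3. Agrn, a heparan sulfate proteoglycan that binds laminin and dystroglycan, had 182, 140 and 221 CPM in muscle and 156, 121 and 108 CPM in epithelium with overlap. Its log2 ratio of 0.50 ± 0.27 had a 95% interval from -0.10 to 1.10 (edgeR adjusted p = 0.35). Dag1, the laminin receptor dystroglycan, had 239, 158 and 359 CPM in muscle and 590, 408 and 482 CPM in epithelium without overlap. It did not pass the threshold (-0.97 ± 0.33, edgeR adjusted p = 0.11). Of 17 alternative fits it passed in 8, at 0.039 with the size factors of DESeq2 in edgeR and 0.00055 with the Wald test of DESeq2. It passed in 0 of 6 leave-one-out fits, where its adjusted p was 0.058 to 0.32.

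The 6 leukocyte and platelet alpha chains and their partners Itgb2 and Itgb7 were low, at no more than 19.8 CPM in any library. Itgam, the macrophage chain, had 0.15, 10.9 and 0.25 CPM in muscle and 0, 19.8 and 6.31 CPM in epithelium. Itgal, the lymphocyte chain, had 0.38, 4.09 and 0.08 CPM in muscle and 0, 7.485 and 5.60 CPM in epithelium. Itgad, Itgax and Itgb2 likewise had no counts in epithelium replicate 1, where 3 counts stand for 0.056 CPM, and at most 4.88 CPM elsewhere. Itgae reached 16.8 CPM, and Itga2b (1.36 to 5.09 CPM) and Itgb7 (2.00 to 6.68 CPM) were more even. None of these 8 genes passed the threshold in edgeR or in any alternative fit that tested it. Itgam shares 70.0% of its exon bases with Gm49368.

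Of the 18 genes under a mean of 20 CPM in both populations, 13 had their 3 highest values in muscle replicate 2 and epithelium replicates 2 and 3. None of the other 30 genes did, but a gene whose groups do not overlap cannot, and most of those 30 are such genes. Their lack of the pattern therefore does not set the low genes apart. Among all tested genes 28.4% had their 3 highest values in these 3 libraries. These are the libraries with background counts, in which receptor genes had a mean of 0.53, 0.98 and 0.41 CPM, against 0.0046 to 0.030 CPM in the other libraries. Summed over 12 immune markers they held 66.5, 60.1 and 29.8 CPM, against 4.33, 25.2 and 4.98 in muscle replicates 1 and 3 and epithelium replicate 1. Platelet markers summed to 23.1, 23.9 and 19.4 CPM in them and to 2.96, 2.93 and 0.97 in the others. Of the 12 immune markers 4 were at 0 in muscle replicate 1 and 2 in epithelium replicate 1. What background counts or immune cells add to the low genes was not tested.

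**Figure D4:**
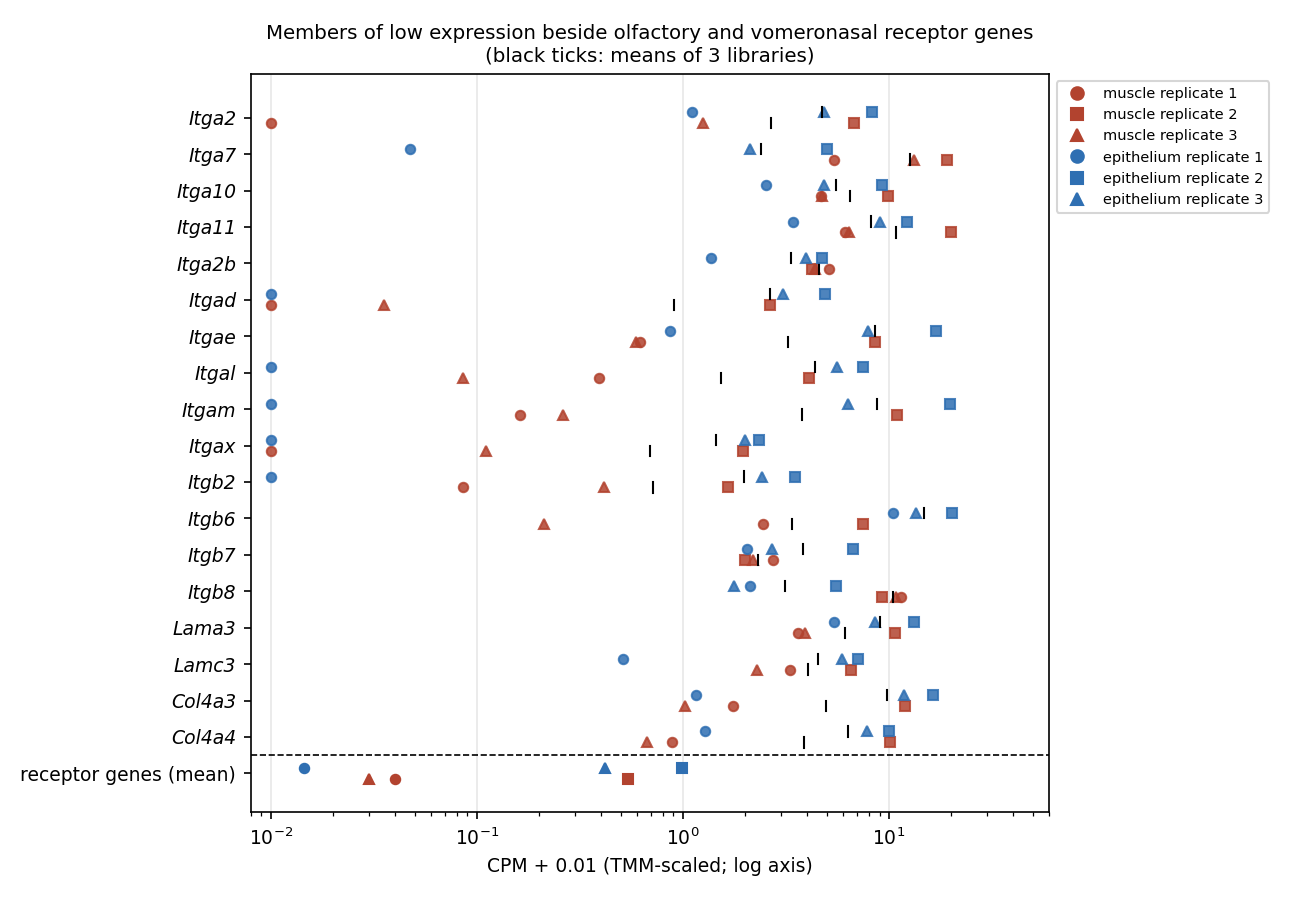
CPM plus 0.01 on a log axis in each library for the 18 genes under a mean of 20 CPM in both populations, with the mean level of 1449 olfactory and vomeronasal receptor genes in the bottom row. Squares of both colours and blue triangles, which are the libraries with background counts, sit to the right of the other points in 13 of the 18 genes.

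Genes that work with these proteins were read from 4 lists. Their counts are to be read beside the shares over all tested genes, 6.58% toward muscle and 4.11% toward epithelium. The median log2 ratio over all tested genes was -0.10. Of 43 genes of the integrin adhesion complex, muscle was higher in 18 and epithelium in 4, with a median log2 ratio of 0.93. Lims2, an adaptor of integrin-linked kinase, had a log2 ratio of 6.35 ± 0.91 (edgeR adjusted p = 0.0029), and Tgfb1i1, a paxillin relative of smooth muscle also called Hic-5, of 5.75 ± 0.61 (edgeR adjusted p = 0.00075). Fermt2 and Fermt1, kindlins, which activate integrins, were called in opposite directions, and the other kindlin, Fermt3, was not called. Fermt2 had 537 ± 251 CPM in muscle (SD, n = 3) against 68.2 ± 10.0005 in epithelium (2.98 ± 0.41, edgeR adjusted p = 0.0022). Fermt1, the epithelial kindlin, had 1.34 ± 1.87 and 23.4 ± 16.4 CPM (-4.17 ± 1.09, edgeR adjusted p = 0.042). Fermt1 kept its call in 1 of 6 leave-one-out fits, the one without muscle replicate 2 (log2 ratio -6.51). Its adjusted p was up to 0.17 in the others, and its log2 ratio was -3.39 without epithelium replicate 1. Lims2 was at 7.04 without epithelium replicate 1, and at an adjusted p of 0.25 with limma-voom. Cd9 (-1.99 ± 0.39, edgeR adjusted p = 0.012), a tetraspanin, and Nedd9 (-1.58 ± 0.23, edgeR adjusted p = 0.0028), a docking protein, were also higher in epithelium. The count toward epithelium in this list was 2 without muscle replicate 1 and without epithelium replicate 1 or 3.

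Of 40 other genes listed with the basement membrane, some of them cell surface receptors, 15 were called toward muscle and 2 toward epithelium. Their median log2 ratio was 0.81. The count toward epithelium was near the share over all tested genes (4.11%). Sparcl1 (5.06 ± 0.85, adjusted p = 0.0060), Ddr2 (4.27 ± 0.58, adjusted p = 0.0021), a cell surface receptor for collagen, and Smoc2 (4.03 ± 0.75, edgeR adjusted p = 0.0095) were the largest toward muscle. Smoc2 was at an adjusted p of 0.054 without epithelium replicate 2 and at a log2 ratio of 4.97 without epithelium replicate 1, and without epithelium replicate 2 the log2 ratios of Sparcl1 and Ddr2 were 6.57 and 5.08. Toward epithelium were Sdc4, a syndecan (-1.89 ± 0.26, edgeR adjusted p = 0.0023), and Npnt. Npnt encodes nephronectin, a ligand of the integrin of Itga8 and Itgb1. It had 20.3 ± 0.28 CPM in muscle (SD, n = 3) against 78.4 ± 4.46 in epithelial cells (-1.95 ± 0.21, edgeR adjusted p = 0.00085), while Itga8 was higher in muscle, so that ligand and receptor chain were called toward opposite populations.

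Of 37 genes listed as integrin ligands outside the basement membrane, 10 were higher in muscle and 1 in epithelium, with a median of 0.98. Toward epithelium the count was near the share over all tested genes (4.11%). Tnc, the gene of tenascin-C and a ligand of the Itga9 and Itga8 integrins, had 468 ± 162 CPM in muscle (SD, n = 3) against 14.4 ± 8.79 in epithelium (5.04 ± 0.52, edgeR adjusted p = 0.00068). Emilin3 (4.34 ± 0.75, adjusted p = 0.0070) and Thbs2, a thrombospondin (4.21 ± 0.86, edgeR adjusted p = 0.015), followed. Integrin binding by the Emilin3 protein was not tested, and the gene is counted by its listing only. Emilin3 was at an adjusted p of 0.060 without epithelium replicate 1, and Thbs2 at 0.068, 0.056 and 0.076 without muscle replicate 1, muscle replicate 3 and epithelium replicate 1. Log2 ratios moved to 5.94 for Thbs2 without epithelium replicate 2, to 3.62 for Emilin3 without muscle replicate 3 and to -5.40 for Icam1 without muscle replicate 2. Icam1, a ligand of leukocyte integrins, was the gene higher in epithelium, with 5.92 ± 4.57 and 164 ± 20.2 CPM (-4.80 ± 0.68, edgeR adjusted p = 0.0026). Without muscle replicate 3 or without epithelium replicate 1 the count toward muscle in this list was 6.

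Of 30 genes listed for hemidesmosomes, the dystroglycan complex and laminin binding, Dag1 among them, 5 were called toward muscle and 4 toward epithelium. Their median was 0.05. Toward muscle were Sgce (2.09 ± 0.25, adjusted p = 0.0012), Sgcb (1.79 ± 0.24, adjusted p = 0.0018), both sarcoglycans, and Sspn, sarcospan (1.91 ± 0.30, edgeR adjusted p = 0.0042). Toward epithelium were Bcam, listed here as a receptor for the Lama5 chain (-2.11 ± 0.28, adjusted p = 0.0018), and Dtna, a dystrobrevin (-1.68 ± 0.33, edgeR adjusted p = 0.013). The hemidesmosome genes Plec, Dst and Col17a1 had overlapping groups and were not called (edgeR adjusted p = 0.19, 0.94 and 0.99). Large2, listed in the table as Gyltl1b, adds the sugar chain by which dystroglycan binds laminin. It had 2.25 ± 0.33 CPM in muscle (SD, n = 3) against 76.6 ± 25.2 in epithelium (-5.08 ± 0.35, edgeR adjusted p = 0.00010). The count toward muscle in this list was 3 when replicate 1 or 3 of either population was left out.

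**Figure D5:**
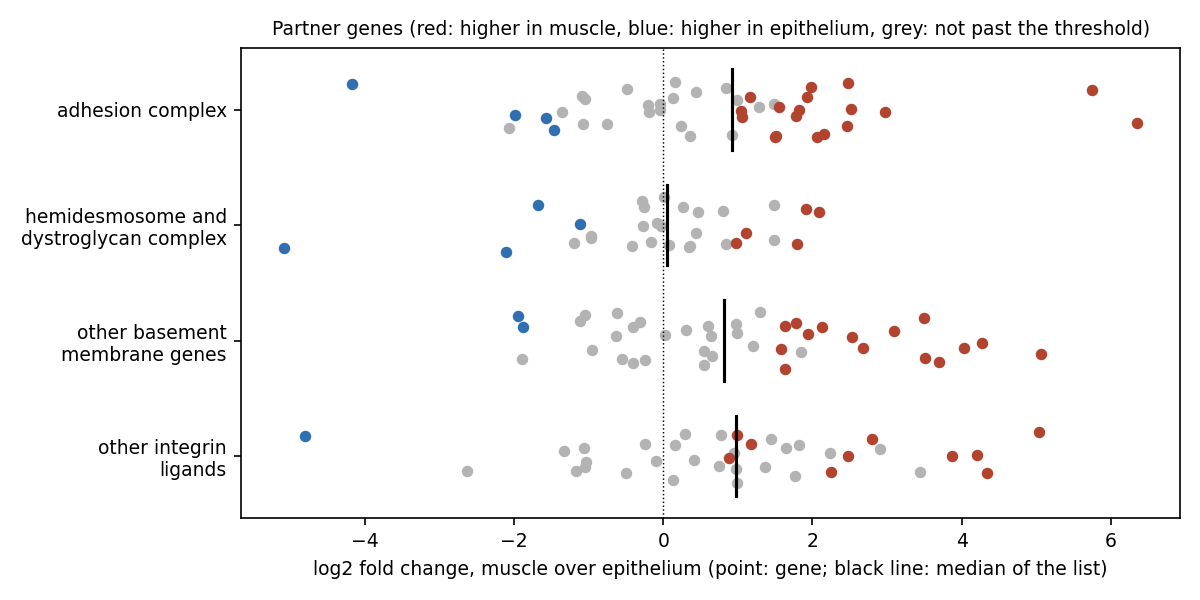
Log2 ratio of muscle over epithelium for each gene of the 4 partner lists (points, spread vertically for legibility), red or blue where the adjusted p is under 0.05 in edgeR and grey where it is not, with a black line at each list's median. The medians are 0.93, 0.05, 0.81 and 0.98 from top to bottom.

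Promoter windows from 250 bases before to 50 bases after the start were matched by symbol for 32 of the 48 genes, with 37 windows among them. The motifs and the windows were searched on both strands with the results already known. GGGCGG, which Sp factors bind, was in 22 of the 37 windows (59.5%) against 35.7% of all 32851 windows. CCAAT was in 10 of 37 (27.0%) against 37.4%, and TATAAA in 0 of 37 against 13.6%. The CArG box, the motif of serum response factor, was in 2 windows, those of Lama2 and Itgb6 (5.41% against 1.63%), neither of which passed the threshold. TGANTCA, the AP-1 motif, was in 3 (8.11% against 7.81%), those of Itga3, Itga9 and Itgax. Of the 11 genes higher in muscle that have a window, 8 hold GGGCGG, and of the 3 higher in epithelium, 2 do. These are counts of genes with the motif in any window, so the shares of windows above are no like comparison.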

How the data were processed

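RNA from 6 libraries (3 of muscle, 3 of epithelium) was measured. Per the labels' protocols, cells were freed with TrypLE and sorted, RNA was extracted with Trizol, and libraries were made with SMART-Seq v4 and Nextera XT, which mark neither molecules nor, in standard use, strand. The submitters' processing notes name Trim Galore, Bowtie2, Cufflinks, DESeq and mm10, with no role or version. The deposited values are whole-number counts per gene symbol, with no blank row. Of counts from 1 to 19, 73.8% to 79.6% per library were even, and of counts of 100 or more 49.4% to 50.6%. If both mates of a pair were counted, which was not tested, counting precision is lower than counts imply.

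Counts were tested in R 4.3.3 with edgeR 4.0.16 (filterByExpr, TMM, robust quasi-likelihood test, two-sided), with Benjamini-Hochberg adjustment over 19375 genes and a threshold of 0.05. SEs derive from the test statistic and 95% intervals from its t distribution. CPM uses TMM-scaled library totals. Coding lengths and positions come from GENCODE M21, and sequences from RefSeq. 17 alternative fits included DESeq2 1.42.0, limma-voom 3.58.1, other scalings and filters and each library left out. The members and lists were chosen with earlier results of these data known. Values in every library are given for genes past the threshold or with a mean of at least 20 CPM. From each partner list up to 3 genes per direction are named, those with the largest change past the threshold, without overlap and with a mean log2 CPM no lower than 2. Of 12 other lists, 11 hold markers of cell types and 1 the response to dissociation. Their tested genes called higher in muscle and in epithelium numbered 12 and 0 of 12 (smooth muscle), 0 and 15 of 15 (epithelial), 1 and 0 of 12 (endothelial), 6 and 0 of 12 (fibroblast), 4 and 0 of 14 (cartilage), 0 and 1 of 11 (neural and glial), 0 and 1 of 8 (mesothelial), 0 and 4 of 9 (oesophageal) and 0 and 4 of 16 (dissociation), and none of the immune (11), platelet (7) and erythroid (5) lists. Of the 48 genes 1 enters the counts but is not reported here. Identifiers in the file headers, read here as dates, put both replicates numbered 2 on day 3 and the other 4 libraries on day 16 of month 9. An exact permutation test of 3 against 3 libraries gives no p under 0.10.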

Additional observations from a re-analysis of the deposited data

How the results depend on the processing

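Of the 20 genes past the threshold, Itga1, Itga3, Itga4, Itga5, Itga6, Itga8, Lamb1, Lamb3, Col4a6, Nid1 and Nid2 kept their call in all 17 alternative fits, and none of the 20 changed direction. Col4a5, which was not past the threshold, changed sign with DESeq2 size factors in edgeR (-0.10), library totals only (-0.25), the Wald test of DESeq2 (-0.10), a filter of at least 1 CPM in 3 libraries (-0.012), the 3 libraries with few background counts (-0.23), and without one library (from -0.17 to 0.15). Of the 48 genes, 8 were higher in muscle at an adjusted p under 0.01, and 8 higher in epithelium with limma-voom. Leaving out 1 library gave 7 to 19 and 4 to 6. Over all genes DESeq2 called 1954 higher in muscle and 1585 in epithelium, an adjusted p under 0.01 left 579 and 404, and leaving out 1 library gave 570 to 1655 and 514 to 918. The header batch as a term gave 2054 higher in muscle, and library totals only 1439 higher in epithelium. Library totals only moved the median log2 ratio of all genes from -0.10 to -0.33 and calls toward muscle from 61.5% to 42.0% of all calls. That share was 50.3% without muscle replicate 3 and 48.8% without epithelium replicate 3. DESeq2 called 7 genes higher in epithelium in the adhesion list and 7 in the hemidesmosome list, where an adjusted p under 0.01 left 1 and 2 and leaving out 1 library gave 2 to 4 and 3 to 4. Toward muscle these lists had 14 to 20 and 3 to 6 with 1 library left out, and 3 were called in the hemidesmosome list at 0.01. Among other basement membrane genes the ranges were 10 to 17 and 2 to 3. For integrin ligands, limma-voom called 16 higher in muscle, 0.01 left 6, and leaving out 1 library gave 6 to 11. The ligands higher in epithelium numbered 2 with library totals, DESeq2, limma-voom, the replicate block, the header batch as a term, the larger header batch and the 3 libraries with few background counts, and 1 in each fit without a library. Same-numbered libraries deviated together at 0.59, 0.73 and -0.57, so the numbers were not taken to pair them. With the replicate block 11 of the 48 genes were called toward muscle and 6 toward epithelium, with Itga9 (adjusted p 0.062), Itgb3 (0.13), Lamc1 (0.055) and Hspg2 (0.073) no longer past the threshold and Dag1 past it (0.035). Without division by length the Lama4 and Lama5 shares in muscle were 59.6% and 19.2%. The setting with few-background libraries was chosen after seeing the data. The causes were not tested. Of the 18 genes under 20 CPM, Itga2, Itgad, Itgal, Itgam, Itgax and Itgb2 had no counts in at least 1 library.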
